A study of Mus musculus with 8 samples.

Results

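Surface ectoderm is the outer, non-neural epithelium of the embryo, and the cells described here are the 2022 cells that carry this name in the authors' combined annotation, out of 28723 cells in the table. They were 588 of 8566 Eomes-KO cells and 1434 of 20157 WT host cells. Eomes encodes a T-box transcription factor needed for much of the mesoderm and for definitive endoderm during gastrulation. The study made chimeras by placing tdTomato+ Eomes-KO embryonic stem cells (ESC) in WT C57BL/6 blastocysts, collected them around embryonic day 8.5 (E8.5), pooled embryos, and sorted each pool by tdTomato, a red fluorescent protein, before 10x Genomics 3′ single-cell RNA sequencing. The tdTomato+ Eomes-KO cells came from 4 independent male ESC clones, 1 per pool, and gave 4 libraries of 602, 1153, 3346 and 3465 cells. The tdTomato− WT host cells of the same pools came from blastocysts of both sexes and gave 4 libraries of 2414, 3791, 5819 and 8133 cells. No library of injected WT ESC was analysed here, so loss of Eomes, ESC origin and the sex of the injected line cannot be told apart. Library names in the table do not give the pool, so libraries are called by genotype and number of cells and were not paired. Values by library are given in the order of these numbers, smallest library first.

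Surface ectoderm forms where ectoderm does not become neural plate, a choice in which BMP signalling is known to favour the non-neural fate and its inhibition the neural one. At the border between the tissues lie the neural crest and the pre-placodal ectoderm, whose thickenings, the placodes, give the inner ear, olfactory epithelium, lens and cranial sensory neurons. Away from the border the sheet becomes epidermis and, over the limb fields, the ectoderm that will form the apical ridge. The amniotic ectoderm is continuous with it at the edge of the embryo. Tfap2a and Grhl2, transcription factors of non-neural ectoderm, Krt18, a simple epithelial keratin, and Trp63, a transcription factor of the epidermal lineage, are its usual markers. No gene counts were analysed here, so the label could not be checked against these markers and rests on the authors' transfer from an atlas of mouse embryos, in which each cell takes the label most frequent among its 15 nearest atlas cells.

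The label was assigned with high scores in both genotypes. The median share of the 15 nearest atlas cells that carried the original label was 1 in all 8 libraries, and all 15 carried it in 66.1%, 74.6%, 72.3% and 60.1% of surface ectoderm cells in the 4 Eomes-KO libraries, against 66.7%, 71.1%, 71.3% and 58.1% in the 4 WT host libraries. The genotypes overlapped almost completely in this measure (difference 1.50 percentage points, exact permutation test, two-sided, 4 against 4 libraries, p = 0.69). All 2022 cells carried the original atlas label surface ectoderm, which was wider and held 2490 cells. The other 468, of which 360 were Eomes-KO and 108 WT host, were called amniotic ectoderm in the combined annotation. The original label thus spans both tissues, and a larger part of it was amniotic in Eomes-KO cells.

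Surface ectoderm made up a similar range of shares in both genotypes. As a share of the epiblast-derived cells of its library, it was 9.32%, 10.6%, 5.29% and 6.72% in the 4 Eomes-KO libraries, against 5.14%, 6.07%, 6.48% and 9.39% in the 4 WT host libraries. The denominators leave out visceral endoderm, parietal endoderm, ExE endoderm and ExE ectoderm and hold 8561 Eomes-KO and 19284 WT host cells. The shares averaged 7.99 ± 2.42% in Eomes-KO libraries and 6.77 ± 1.84% in WT host libraries (SD, n = 4 each), and the ranges overlapped. In edgeR's quasi-likelihood test over 33 combined cell types the log2 fold change was 0.22 (SE 0.32, adjusted p = 0.56). That test called 69.7% of all types in 1 direction or the other, 23 of the 33. A share of cells moves when other types are lost, and so does the scaling between libraries. The log2 fold change was -0.05 with TMM scaling and -0.81 with DESeq2's ratio size factors (adjusted p = 0.91 and 0.16), but the median of all types moved with it, by -0.14 and -0.91. Relative to that shift surface ectoderm stood at 0.09 and 0.10 on the log2 scale. With the wider original label, which takes in the amniotic cells, it was 0.87 (edgeR, adjusted p = 0.028).

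Ratios to other ectodermal types within each library do not depend on what else was lost, and they placed surface ectoderm between types that moved in opposite directions. Amniotic ectoderm, the inner epithelium of the amnion, held 360 Eomes-KO and 108 WT host cells. The log2 ratio of surface to amniotic ectoderm, with 0.5 added to each number of cells, was -0.28, 1.71, 1.68 and 0.22 in the 4 Eomes-KO libraries, against 3.70, 4.59, 2.79 and 4.14 in the 4 WT host libraries. No library of one genotype reached the range of the other, and the difference was -2.97 (exact permutation test, two-sided, n = 4 each, p = 0.029, the smallest that 4 against 4 libraries allow, adjusted p = 0.048 over 5 ratios).

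Against forebrain midbrain hindbrain and neural crest the ratio went the other way. Forebrain midbrain hindbrain, the anterior neural tube, held 311 Eomes-KO and 2060 WT host cells. Its log2 ratio, surface ectoderm over neural cells, was 1.21, 2.16, 0.48 and 0.81 in the 4 Eomes-KO libraries, so surface ectoderm outnumbered it in all 4. The ratio was -1.14, -1.22, -0.44 and -0.10 in the 4 WT host libraries, where it was the less numerous tissue (difference 1.89, exact permutation test, n = 4 each, p = 0.029, adjusted p = 0.048). Neural crest, the migratory population that arises at the border with the neural plate, held only 12 Eomes-KO cells against 347 WT host cells. The ratio to it was 6.82, 6.35, 4.56 and 5.70 in the 4 Eomes-KO libraries, against 2.74, 1.94, 1.93 and 2.03 in the 4 WT host libraries (difference 3.70, exact permutation test, n = 4 each, p = 0.029, adjusted p = 0.048). With so few Eomes-KO neural crest cells, the Eomes-KO ratios depend on the 0.5 added, most of all in the smaller libraries. The size of this difference is therefore imprecise.

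The ratios to spinal cord and to rostral neurectoderm, an early anterior neural label, overlapped between genotypes. Surface ectoderm to spinal cord averaged 1.42 ± 0.42 in Eomes-KO libraries and 0.75 ± 0.37 in WT host libraries (SD, n = 4 each, exact permutation test, adjusted p = 0.11). Surface ectoderm to rostral neurectoderm averaged 1.18 ± 1.06 in Eomes-KO libraries and 1.18 ± 0.99 in WT host libraries (SD, n = 4 each, exact permutation test, p = 1). As shares of epiblast-derived cells in the same edgeR fit, the log2 fold changes were 3.32 for amniotic ectoderm (SE 0.59, adjusted p = 0.00012), -1.66 for forebrain midbrain hindbrain (SE 0.30, adjusted p = 0.00014) and -3.56 for neural crest (SE 0.60, adjusted p = 8.0e-05). Caudal neurectoderm, for which no ratio was computed, held 99 Eomes-KO and 117 WT host cells. Its log2 fold change was 1.27 (SE 0.58, edgeR, adjusted p = 0.060). With any 1 library left out, 3 against 4 libraries cannot give an exact p under 0.057, so none of the ratios then passes, while the 3 that had passed kept their sign in each case.

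**Figure D1:**
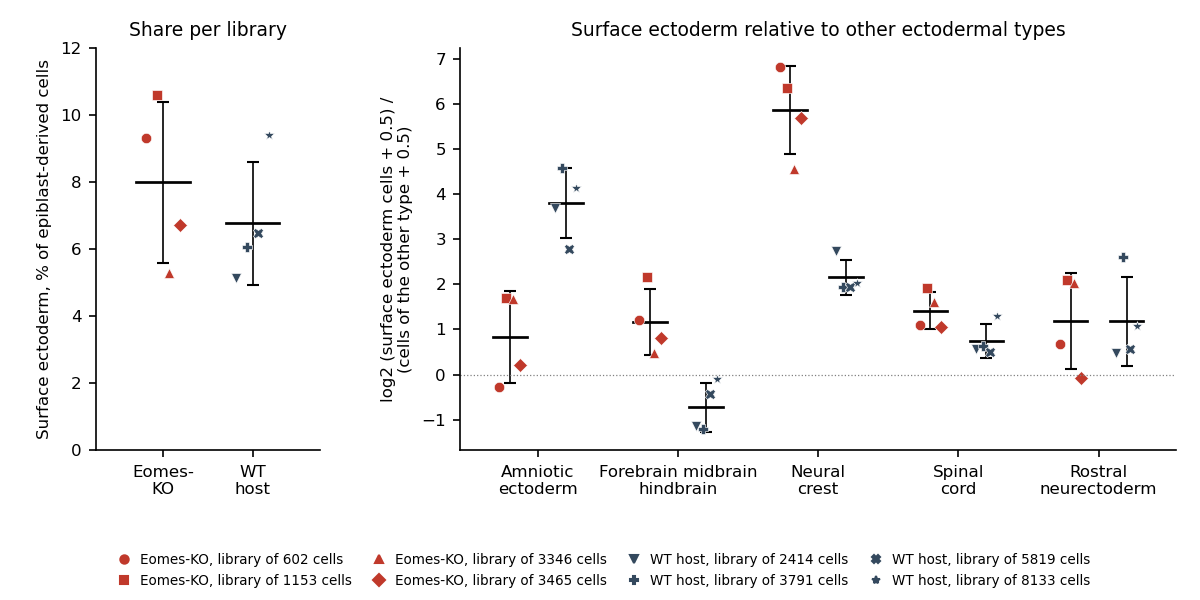
Left, surface ectoderm as a percentage of epiblast-derived cells in each library. Right, the log2 ratio of surface ectoderm cells to cells of 5 other ectodermal types. Points are libraries, horizontal bars the mean and vertical bars 1 SD (n = 4 each). The shares overlap, while the ratios to amniotic ectoderm, forebrain midbrain hindbrain and neural crest do not.

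Within surface ectoderm, the atlas's extended annotation split the cells into 14 labels. The 7 with at least 10 cells held 2006 of the 2022, and the other 7 held 16 cells together. Epidermis, the later covering epithelium, was the label with the largest fold difference among these 7, lower in Eomes-KO cells, although placodal ectoderm differed by more percentage points. It was given to 1, 0, 0 and 1 cells in the 4 Eomes-KO libraries, or 1.79%, 0%, 0% and 0.43% of their surface ectoderm, against 3, 9, 24 and 30 cells, or 2.44%, 3.95%, 7.19% and 4.01%, in the 4 WT host libraries. The libraries of the genotypes do not overlap. The small Eomes-KO library of 602 cells came nearest to the WT host range, with 1 of 56 cells. A count of 0 allows a share of up to 2.46% in the Eomes-KO library of 1153 cells and up to 1.69% in that of 3346 cells, from a limit of 3 cells. Summed over libraries, 2 of 588 Eomes-KO cells and 66 of 1434 WT host cells were epidermis, so that the WT host share was 13.5 times the Eomes-KO share (95% exact interval 3.60 to 114, counting error only). That ratio rests on 2 Eomes-KO cells. The means of the library shares, 0.55% in Eomes-KO and 4.39% in WT host, differ by 7.94 times, and without the Eomes-KO library of 602 cells the summed ratio was 24.5, on 1 Eomes-KO cell (interval 4.24 to 982), both computed after seeing the data.

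Otic placode, the thickening that invaginates to form the inner ear, was given to 3 Eomes-KO cells, 1 in each of 3 libraries, and to 32 WT host cells. Its shares of surface ectoderm were 0%, 0.82%, 0.56% and 0.43% in the 4 Eomes-KO libraries, against 3.25%, 2.19%, 1.20% and 2.54% in the 4 WT host libraries. The genotypes do not overlap here either, and the WT host share was 4.37 times the Eomes-KO share (95% exact interval 1.37 to 22.3, counting error only). The absence in the Eomes-KO library of 602 cells carries little weight, since a count of 0 allows up to 5.36% of its 56 surface ectoderm cells.

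Placodal ectoderm, the border tissue from which placodes arise, was given to 43 Eomes-KO and 198 WT host cells. It made up 1.79%, 9.84%, 8.47% and 6.44% of surface ectoderm in the 4 Eomes-KO libraries, against 18.7%, 18.0%, 15.3% and 11.1% in the 4 WT host libraries. The highest Eomes-KO library stayed below the lowest WT host library by a little over 1 percentage point, and the means were 6.63 ± 3.52% in Eomes-KO and 15.8 ± 3.45% in WT host libraries (SD, n = 4 each).

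Non-neural ectoderm, the least specialised name in this group and the one given to early surface cells, was the largest label in every library. It took 78.6%, 45.9%, 55.4% and 64.4% of surface ectoderm in the 4 Eomes-KO libraries, against 34.96%, 30.7%, 41.3% and 44.2% in the 4 WT host libraries. The Eomes-KO libraries lay above all WT host libraries, although the Eomes-KO library of 1153 cells and the WT host library of 8133 cells were close. The means were 61.1 ± 13.9% in Eomes-KO and 37.8 ± 6.10% in WT host libraries (SD, n = 4 each).

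The remaining labels overlapped between genotypes. Limb ectoderm, which covers the limb fields, was given to 59 Eomes-KO and 154 WT host cells and averaged 9.33 ± 5.42% of surface ectoderm in Eomes-KO and 11.0 ± 1.32% in WT host libraries (SD, n = 4 each). The label also called surface ectoderm in the extended annotation was given to 40 Eomes-KO and 107 WT host cells and averaged 5.85 ± 2.75% in Eomes-KO and 7.66 ± 0.88% in WT host libraries (SD, n = 4 each). The Eomes-KO libraries were the more dispersed in both, with the library of 602 cells lowest.

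**Figure D2:**
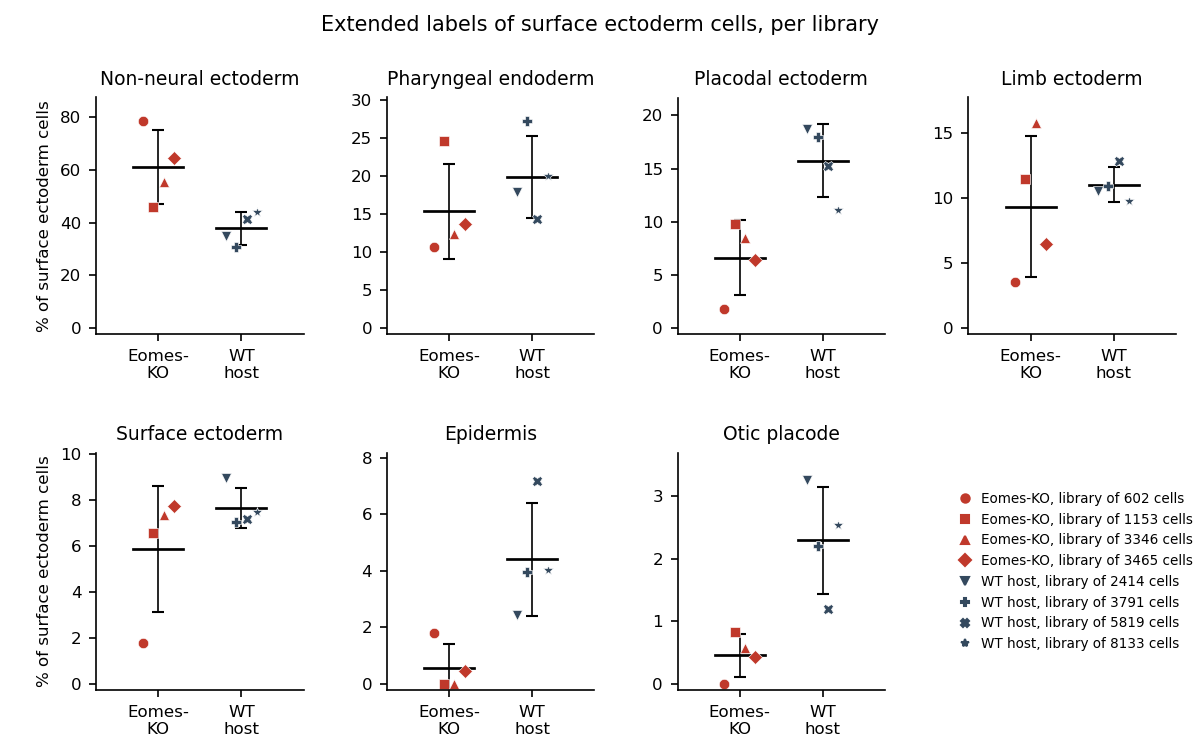
Percentage of surface ectoderm cells given each of the 7 extended labels with at least 10 cells, by library. Points are libraries, horizontal bars the mean and vertical bars 1 SD (n = 4 each), and the axes differ in range. Non-neural ectoderm is higher in all Eomes-KO libraries, and placodal ectoderm, epidermis and otic placode are lower in all of them.

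Tests of these labels gave calls that depended on the denominator. Over all 116 pairs of combined and extended label with at least 10 cells, as shares of epiblast-derived cells, edgeR's quasi-likelihood test called 56.0% of pairs lower and 12.1% higher in Eomes-KO cells. Of the 7 surface ectoderm pairs, 2 were lower, epidermis (2 against 66 cells, adjusted p = 0.00016) and otic placode (3 against 32 cells, adjusted p = 0.032), which is a smaller part than among all pairs, and none was higher (none at an unadjusted p under 0.05 either). Placodal ectoderm had a log2 fold change of -0.95 (SE 0.48, adjusted p = 0.072) and non-neural ectoderm of 0.85 (SE 0.44, adjusted p = 0.081). The call on epidermis held with each library left out. That on otic placode was lost without the Eomes-KO library of 3346 cells (edgeR, adjusted p = 0.10), the Eomes-KO library of 3465 cells (0.094) or the WT host library of 8133 cells (0.12). Placodal ectoderm was called lower with TMM scaling of all libraries (log2 fold change -1.10, adjusted p = 0.033) and, without that scaling, when the Eomes-KO library of 1153 cells was left out (adjusted p = 0.019), and non-neural ectoderm higher when the largest WT host library, that of 8133 cells, was left out (adjusted p = 0.033).

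As shares of surface ectoderm alone, each of the 4 labels whose libraries did not overlap had an exact permutation p of 0.029 (two-sided, n = 4 each), which is 0.050 after adjustment over 7 labels, so that none was under the threshold and the 4 reached only its edge. The edgeR test with the surface ectoderm cells of each library as its size called these same 4, with log2 fold changes of -3.58 for epidermis (adjusted p = 2.5e-05), -2.01 for otic placode (adjusted p = 0.0098), -1.05 for placodal ectoderm (adjusted p = 0.011) and 0.64 for non-neural ectoderm (adjusted p = 0.011). Without the Eomes-KO library of 3465 cells the last 3 had an adjusted p of 0.058 each. These shares sum to the whole of the tissue, so a higher share of one label lowers the others.

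Pharyngeal endoderm is an endodermal name, for the foregut lining of the pharyngeal arches, yet 372 of the 416 cells with this extended label were surface ectoderm in the combined annotation and only 44 were gut. They made up 10.7%, 24.6%, 12.4% and 13.7% of surface ectoderm in the 4 Eomes-KO libraries, against 17.9%, 27.2%, 14.4% and 20.03% in the 4 WT host libraries. The ranges overlapped (difference -4.50 percentage points, exact permutation test, two-sided, n = 4 each, adjusted p = 0.37). As a share of epiblast-derived cells their log2 fold change was -0.11 (SE 0.46, edgeR, adjusted p = 0.84), whereas gut, the tissue that the extended name refers to, had -5.11 (SE 0.51, adjusted p = 4.9e-07) with 10 Eomes-KO and 793 WT host cells.

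All surface ectoderm cells carried the original label of that name. By this choice of cells, that label was the most frequent among the 15 nearest atlas cells of each of these 372 cells. All 15 carried it in 77.8% of the 90 Eomes-KO cells and 62.4% of the 282 WT host cells, and the median extended score, the share of the 15 called pharyngeal endoderm, was 0.60 in Eomes-KO against 0.73 in WT host. Of all cells with the pharyngeal name, 90 of 93 Eomes-KO cells were called surface ectoderm (96.8%, 95% Clopper-Pearson interval 90.9 to 99.3) and 282 of 323 WT host cells (87.3%, 83.2 to 90.7). These intervals pool the libraries and cover counting error only. By library this was 100%, 100%, 95.7% and 94.1% in the 4 Eomes-KO libraries, against 75.9%, 84.9%, 85.7% and 90.9% in the 4 WT host libraries. The rest, 3 Eomes-KO and 41 WT host cells, were gut, so these percentages also depend on how many gut cells each genotype had. They were not tested between genotypes. Whether the 372 cells express ectodermal or endodermal genes could not be examined without gene counts. Their median doublet scores were 0.20 (Eomes-KO) and 0.21 (WT host), and leaving them out gave a log2 fold change of the surface ectoderm share of 0.29 (edgeR, adjusted p = 0.46).

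Each cell also took an embryonic stage from its nearest atlas cells, from E7.5 to E8.5, and Eomes-KO surface ectoderm mapped to earlier stages. Cells mapped to E8.5, the latest stage, made up 10.7%, 18.0%, 15.8% and 13.3% of surface ectoderm in the 4 Eomes-KO libraries, against 25.2%, 36.8%, 26.9% and 33.6% in the 4 WT host libraries. Every Eomes-KO library was below every WT host library. The mean mapped stage was 8.15, 8.20, 8.20 and 8.14 days in the 4 Eomes-KO libraries, against 8.25, 8.32, 8.26 and 8.27 days in the 4 WT host libraries. This -0.103 day difference was larger than the spread within either genotype (SD 0.030 in Eomes-KO and 0.032 in WT host libraries, exact permutation test, two-sided, n = 4 each, p = 0.029, the smallest possible).

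E8.25 was the most frequent stage in both genotypes, assigned to 289 of 588 cells in Eomes-KO and 714 of 1434 in WT host, and the genotypes differed on either side of it. E8.0 held 33.9%, 13.9%, 25.4% and 31.8% in the 4 Eomes-KO libraries, against 5.69%, 4.82%, 18.0% and 16.8% in the 4 WT host libraries, with the Eomes-KO library of 1153 cells inside the WT host range. E7.75 averaged 9.09 ± 2.52% in Eomes-KO and 3.85 ± 2.65% in WT host libraries (SD, n = 4 each, exact permutation test, p = 0.057). E7.5 held 4 Eomes-KO and 6 WT host cells. After adjustment over the 5 stages no single stage passed (exact permutation tests, n = 4 each, adjusted p = 0.14 for E7.75, E8.0 and E8.5, with E8.5 alone under an unadjusted 0.05).

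**Figure D3:**
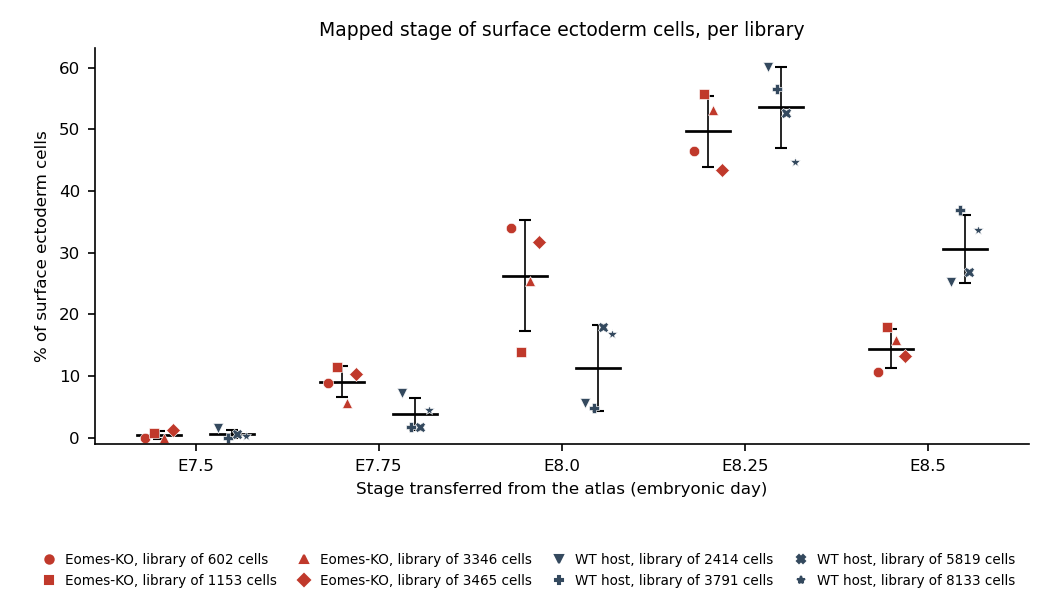
Percentage of surface ectoderm cells mapped to each atlas stage, by library, from early to late. Points are libraries, horizontal bars the mean and vertical bars 1 SD (n = 4 each). At E8.5 the Eomes-KO libraries lie between 10.7% and 18.0% and the WT host libraries between 25.2% and 36.8%, and at E8.0 the Eomes-KO libraries are higher with overlap.

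Stage and extended label come from the same 15 atlas cells and are not independent measures. Non-neural ectoderm was the earliest label, with a mean stage of 8.07 days in Eomes-KO and 8.13 days in WT host, and epidermis the latest, at 8.5 days in the 2 Eomes-KO cells and 8.48 days in the 66 WT host cells. Otic placode (8.42 days in Eomes-KO, 8.45 days in WT host) also mapped late, while placodal ectoderm (8.28 days in Eomes-KO, 8.32 days in WT host) lay in between. Every other label mapped later than non-neural ectoderm, including those whose shares overlapped between genotypes. The pharyngeal label (8.36 days in Eomes-KO, 8.40 days in WT host) mapped later than placodal ectoderm. So did the extended label surface ectoderm (8.37 days in Eomes-KO, 8.38 days in WT host). The mean share of each label later than non-neural ectoderm was lower in Eomes-KO than in WT host libraries. For limb ectoderm, the pharyngeal label and the extended label surface ectoderm the libraries overlapped. Whether mapped stage accounts for the differences in share was not tested.

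A difference in stage was present within some single labels and not within others. The p-values given here were not adjusted over labels. Within non-neural ectoderm the mean stage was 8.11, 8.07, 8.10 and 8.04 days in the 4 Eomes-KO libraries, against 8.13, 8.19, 8.13 and 8.12 days in the 4 WT host libraries, with no overlap (difference -0.066 days, exact permutation test, n = 4 each, p = 0.029). Within limb ectoderm it was 8.0, 8.25, 8.26 and 8.30 days in the 4 Eomes-KO libraries, against 8.35, 8.33, 8.33 and 8.35 days in the 4 WT host libraries (difference -0.135 days, exact permutation test, n = 4 each, p = 0.029), where the first Eomes-KO library contributed 2 cells. Within the pharyngeal label the difference was -0.038 days and the libraries overlapped (exact permutation test, n = 4 each, p = 0.086).

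The labels were also compared at a fixed stage. Among cells mapped to E8.25, non-neural ectoderm averaged 53.2 ± 13.7% in Eomes-KO and 42.9 ± 5.03% in WT host libraries (SD, n = 4 each, exact permutation test, p = 0.17), and placodal ectoderm 11.4 ± 5.35% in Eomes-KO and 20.1 ± 2.97% in WT host libraries (SD, n = 4 each, p = 0.057, exact permutation test). The differences were 10.3 and -8.70 percentage points, against 23.3 and -9.12 over all stages. Among cells mapped to E8.0 nearly all were non-neural ectoderm, 93.7 ± 7.87% in Eomes-KO and 93.2 ± 6.02% in WT host libraries (SD, n = 4 each). Among cells mapped to E8.5, epidermis, placodal ectoderm and otic placode together, a grouping made after their values were seen and not tested, averaged 12.2 ± 6.24% in Eomes-KO and 33.5 ± 8.26% in WT host libraries (SD, n = 4 each). No single label tested at E8.5 passed. Placodal ectoderm averaged 5.51% in Eomes-KO and 14.5% in WT host libraries (exact permutation test, p = 0.086), epidermis 4.97% in Eomes-KO and 12.3% in WT host libraries (exact p = 0.31), and non-neural ectoderm 10.9% in Eomes-KO and 3.37% in WT host libraries (exact p = 0.51). The Eomes-KO library of 602 cells had 6 cells at that stage.

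**Figure D4:**
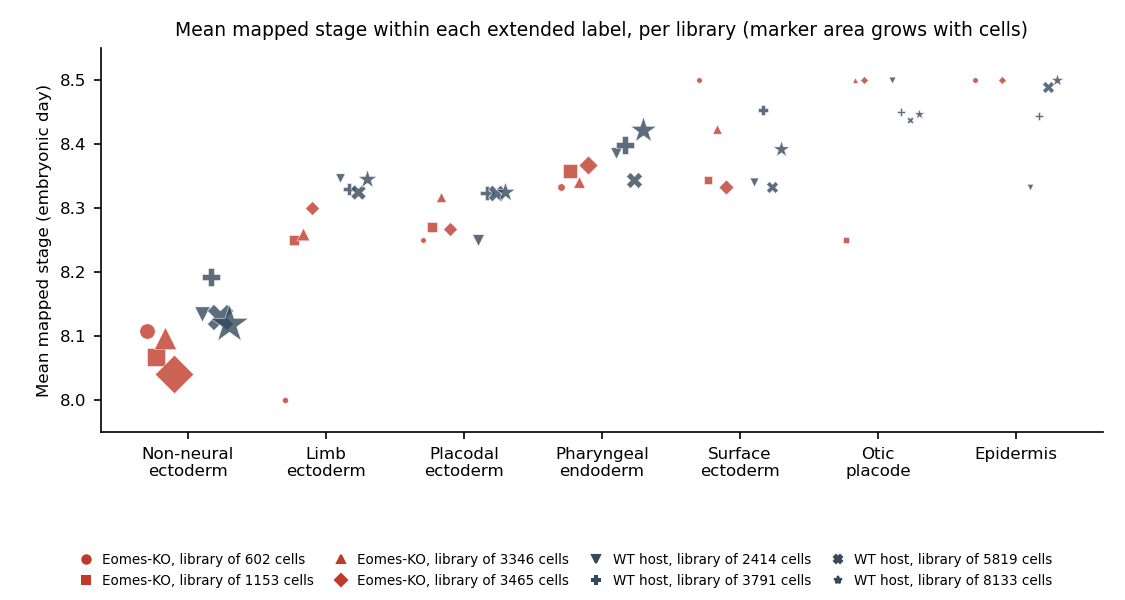
Mean mapped stage of the surface ectoderm cells of each extended label, by library, with labels ordered roughly from early to late and marker area growing with the number of cells. Libraries with no cell of a label have no marker. Non-neural ectoderm and limb ectoderm are earlier in all Eomes-KO libraries, and the small markers of otic placode and epidermis in Eomes-KO stand for 1 cell each.

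An earlier mapped stage was not shown to be particular to surface ectoderm. The other epiblast-derived cells had a mean stage of 8.16, 8.11, 8.21 and 8.15 days in the 4 Eomes-KO libraries, against 8.19, 8.30, 8.18 and 8.22 days in the 4 WT host libraries, a difference of -0.065 days (exact permutation test, n = 4 each, adjusted p = 0.17). Surface ectoderm minus these other cells of the same library differed between genotypes by -0.038 days (exact permutation test, n = 4 each, p = 0.26). Spinal cord showed a difference of its own of -0.135 days (exact permutation test, n = 4 each, p = 0.029). Forebrain midbrain hindbrain differed by -0.051 days and rostral neurectoderm by -0.054 days, with overlap (exact permutation tests, n = 4 each, p = 0.14 and 0.29). Amniotic ectoderm had 8.17 ± 0.02 days in Eomes-KO and 8.13 ± 0.05 days in WT host libraries (SD, n = 4 each, exact permutation test, p = 0.26). Set against it, surface ectoderm was later by 0.003 days in Eomes-KO and by 0.146 days in WT host libraries on average (exact permutation test of the difference, n = 4 each, adjusted p = 0.11 over 4 tissues).

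The share of surface ectoderm among cells of 1 mapped stage was highest relative to WT host at E7.75. It was 13.5%, 13.6%, 7.58% and 11.7% of the E7.75 epiblast-derived cells in the 4 Eomes-KO libraries, against 3.72%, 2.94%, 1.19% and 5.94% in the 4 WT host libraries. The libraries did not overlap (exact permutation test, n = 4 each, p = 0.029, adjusted p = 0.14 over 5 stages). At E8.5 the shares averaged 7.33% in Eomes-KO and 7.65% in WT host libraries.

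The 588 Eomes-KO cells had 479 distinct nearest atlas cells and the 1434 WT host cells 991, of which 215 served both genotypes, 44.9% of the Eomes-KO list and 21.7% of the WT host list. These percentages share the same 215 atlas cells and differ only through the lengths of the lists. The overlap between equal numbers of cells was not computed. Scores of the transferred labels were close. The median extended score was 0.667 in every Eomes-KO library, against 0.667 to 0.733 in WT host libraries. The mean stage score, the share of the 15 atlas cells of the stage given, was 0.508, 0.551, 0.539 and 0.511 in the 4 Eomes-KO libraries, against 0.596, 0.623, 0.576 and 0.584 in the 4 WT host libraries. All Eomes-KO libraries were below the WT host libraries, but not past the threshold after adjustment (difference -0.068, exact permutation test, n = 4 each, p = 0.029, adjusted p = 0.086 over 3 scores), and among cells with a stage score of at least 0.5 the mean stage still differed by -0.106 days (p = 0.029, exact permutation test).

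Depth differed between the libraries. Surface ectoderm cells had a median of 37104, 21945, 17523 and 9387 UMIs in the 4 Eomes-KO libraries, against 8070, 9422, 10486 and 4826 in the 4 WT host libraries. Of the Eomes-KO libraries, 3 were thus deeper than any WT host library, and that of 3465 cells lay within the WT host range (exact permutation test, n = 4 each, adjusted p = 0.14 over 5 measures). The Eomes-KO library of 3465 cells had 64.4% non-neural ectoderm, 6.44% placodal ectoderm, 0.43% epidermis and 13.3% of cells at E8.5, each outside the WT host range. Its epidermis share stands for 1 cell. Within libraries, cells above the median UMIs had the higher share of non-neural ectoderm in 7 of 8. Among the deeper cells it ranged over 52.5 to 75.0% in Eomes-KO and 34.2 to 49.5% in WT host libraries, and among the shallower over 39.3 to 82.1% in Eomes-KO and 27.2 to 40.1% in WT host libraries, where the ranges overlap.

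With only cells of 5000 to 20000 UMIs, non-neural ectoderm differed by 24.1 percentage points, which did not pass (exact permutation test, n = 4 each, adjusted p = 0.20, against 0.050 with all cells). The mean stage in that window was lower in Eomes-KO libraries by 0.150 days (exact permutation test, n = 4 each, p = 0.029), but the Eomes-KO library of 602 cells then held 3 surface ectoderm cells. Gene counts would be needed to thin cells to 1 depth, so the part of depth in the differences beyond these values was not tested.

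Surface ectoderm also stood in a different relation to the rest of its library in the 2 genotypes. Its median UMIs were higher than those of the other epiblast-derived cells in all 4 Eomes-KO libraries, by 0.20, 0.21, 0.05 and 0.08 on the log2 scale in those of 602, 1153, 3346 and 3465 cells, whereas the same difference was -0.05, -0.21, -0.05 and -0.09 in the 4 WT host libraries (difference 0.23, exact permutation test, n = 4 each, p = 0.029, adjusted p = 0.048 over 5 measures). The ribosomal share of UMIs exceeded that of the other cells by 0.94 ± 0.32 percentage points in Eomes-KO and by 0.05 ± 0.17 in WT host libraries (SD, n = 4 each, exact permutation test, adjusted p = 0.048). The doublet score, surface ectoderm minus other cells, was -0.013 ± 0.025 in Eomes-KO and 0.043 ± 0.015 in WT host libraries (SD, n = 4 each, exact permutation test, adjusted p = 0.048). For surface ectoderm by itself, ribosomal share, mitochondrial share and doublet score overlapped between genotypes, with median doublet scores of 0.16 to 0.295 in Eomes-KO and 0.20 to 0.23 in WT host libraries.

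**Figure D5:**
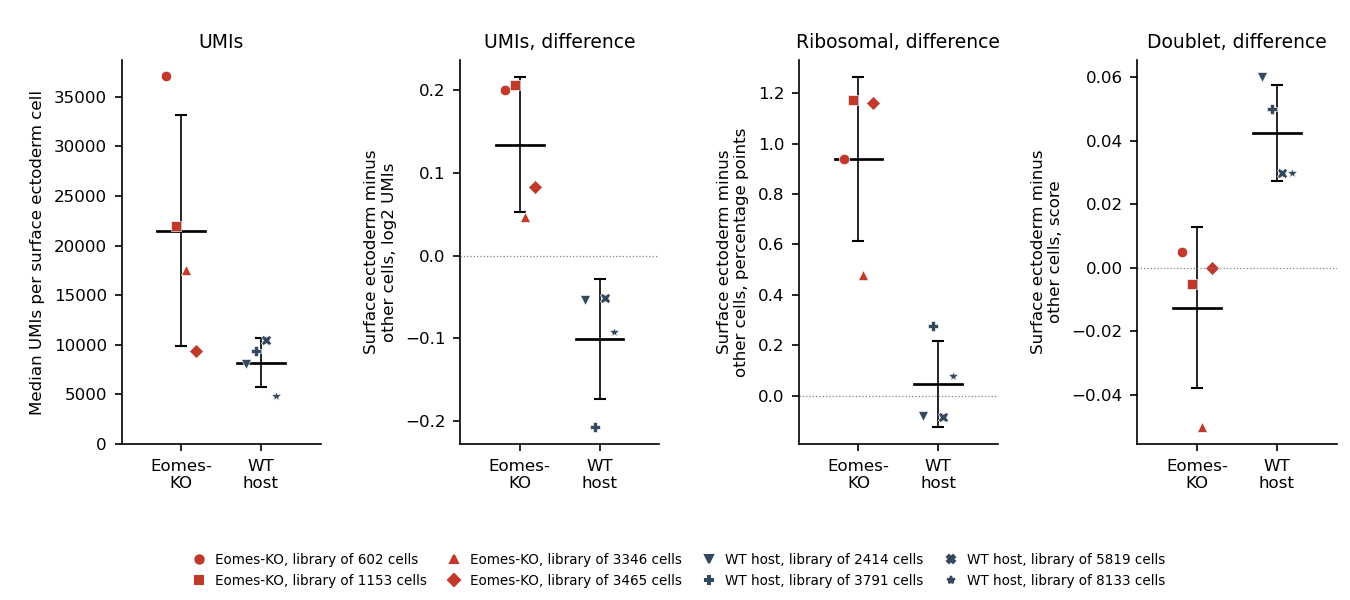
Left, median UMIs per surface ectoderm cell in each library. Then, surface ectoderm minus the other epiblast-derived cells of the same library for log2 median UMIs, ribosomal percentage and doublet score. Points are libraries, horizontal bars the mean and vertical bars 1 SD (n = 4 each). The Eomes-KO library of 3465 cells has the UMIs of WT host libraries, and the 3 differences do not overlap between genotypes.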

How the data were processed

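Each pool of chimeras was sorted and sequenced as 1 tdTomato+ and 1 tdTomato− library. The authors obtained UMI counts from Cell Ranger 6.0.1 with the mm10 genome (also in the submitters' processing notes), filtered cells and removed those with a doublet score above 0.5. The deposited table has 1 row per cell: total UMI counts, without normalization, genes detected, mitochondrial percent, ribosomal percent and doublet score. The authors also deposited transferred labels from 3 annotations (42 combined, 37 original and 77 extended labels) with scores, each the fraction of the 15 nearest atlas cells with that label.

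Surface ectoderm cells were those so named in the combined annotation, and a library's genotype was that of its cells' tdTomato status. Cells entered only as numbers, shares, means or medians per library. The label set, comparison tissues and tests were chosen with earlier results of these data known. Numbers of cells per label were compared in R 4.3.3 by edgeR 4.0.16 (glmQLFit, glmQLFTest, genotype alone, epiblast-derived cells as library size, labels with at least 10 cells, Benjamini-Hochberg at 0.05). The study's own design has the pool as a term, which could not be fitted. Exact permutation tests in scipy 1.17.1 (two-sided, 4 against 4 libraries, 70 arrangements) served for other measures. Intervals are exact (95%) and, like the limit of 3 cells, cover counting error only. The labels named are those with at least 10 surface ectoderm cells, the 5 comparison tissues, caudal neurectoderm and gut. Alternatives were TMM, DESeq2 1.42.0, limma 3.58.1, other denominators, label sets, filters on scores, UMIs and doublets, and each library left out. Pools are separate embryos and clones. Of 80 barcodes present in 2 libraries none joined 2 surface ectoderm cells, and 11 surface ectoderm cells had such a barcode. Surface ectoderm held 957143 to 3783299 UMIs per library.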

Additional observations from a re-analysis of the deposited data

Results flagged for a closer look

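Among 52 groups of 4 libraries examined, 3 held 1 library far from the others by Dixon's test at 95%, and chance flags about 1 in 20 groups. The WT host library of 8133 cells had a log2 ratio of surface ectoderm to spinal cord of 1.29, against 0.50 to 0.62 in the other WT host libraries. The WT host library of 2414 cells had a log2 ratio of surface ectoderm to neural crest of 2.74, against 1.93 to 2.03. The WT host library of 3791 cells had a median stage score of 0.60, against 0.533 in each of the others, a step of 1 atlas cell in 15.

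The effect of genotype on the number of cells differed between surface ectoderm and 3 other tissues by the test of the ratio itself. The difference in log2 ratio, Eomes-KO minus WT host, was -2.97 against amniotic ectoderm, 1.89 against forebrain midbrain hindbrain and 3.70 against neural crest (exact permutation tests, two-sided, n = 4 each, adjusted p = 0.048, higher or lower in 4 of 4 libraries). It also differed between surface ectoderm and the other epiblast-derived cells for log2 median UMIs (0.23), ribosomal share (0.89 percentage points) and doublet score (-0.055), each with an adjusted p of 0.048 by the same exact test.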

How the results depend on the processing

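The share of surface ectoderm, 0.22 on the log2 scale, turned to -0.052 with TMM scaling, -0.81 with DESeq2's ratio size factors, -0.20 without blood in the denominator, -0.16 with the extended label of the same name and -0.050 with cells of 5000 to 20000 UMIs, and was 0.87 and past the threshold with the original label (edgeR, adjusted p = 0.028), which adds 468 amniotic cells. The median over all types moved by -0.14 with TMM, -0.91 with DESeq2's ratio factors, 0.60 with its poscounts factors and -0.41 without blood. Relative to these shifts the share stood at 0.087, 0.10, 0.067 and 0.21, in that order. With the extended label and with 5000 to 20000 UMIs the share stayed negative relative to the median shift, at -0.16 and -0.088. With 1 library left out it ranged over 0.053 to 0.43, and no fit passed. The 79 label pairs called over all tissues ranged over 68 to 80, and the surface ectoderm labels called lower, 2 in the full fit, over 1 to 3. Shares of finer labels called by exact tests numbered 0, against 4 by edgeR within surface ectoderm, where epidermis had -3.58, otic placode -2.01, placodal ectoderm -1.05 and non-neural ectoderm 0.64.

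The mean stage difference of -0.103 days ranged over -0.112 to -0.088 with 1 library left out, where 3 against 4 libraries allow no exact p under 0.057, and was -0.038 within the pharyngeal label, an alternative chosen after seeing the data (exact p = 0.086), as were those by single stage, single label, extended score and stage score. For the same reason the ratios that passed, 3 of 5, became 0 with any library left out. Differences within the spread between libraries changed sign. For rostral neurectoderm the ratio difference, 0.0004, was -0.059 with label scores of at least 0.5, -0.10 with doublet scores under 0.25, -0.0042 with 1 cell added, and -0.31 to 0.47 with 1 library left out. The limb ectoderm difference became 1.53 percentage points with 5000 to 20000 UMIs and -3.88 to 0.21 with 1 library left out, and that of the pharyngeal label 2.69 among cells mapped to E8.25. That of E7.5 was 0.20 with label scores of at least 0.5, 0.10 with stage scores of at least 0.5, 0.43 within non-neural ectoderm and -0.35 to 0.24 with 1 library left out. Within the pharyngeal label E7.75 had -0.17, E8.0 -0.69 and E8.25 17.0 percentage points. The doublet score difference was -0.085 with 5000 to 20000 UMIs and -0.023 to 0.023 with 1 library left out. The causes of these changes were not tested.

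Of 328 recomputed values of single labels, tissues and measures, 24 changed sign. Of those 328, 200 leave out a library, where the exact tests could not pass, so their side of the threshold says nothing about stability. No paired analysis was possible because library names do not give the pool. The number of surface ectoderm cells limits precision most in the Eomes-KO library of 602 cells, with 56.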
